A study of Homo sapiens with 6 samples.

Results

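The 10 genes described here comprise 9 genes of antigen presentation on MHC class I and Cd274, the gene of the checkpoint ligand PD-L1. They were found by their gene IDs in each library, and all 10 were present among the 54532 IDs of the files. By Ensembl's mouse names they are H2-K1, H2-D1, B2m, Tap1, Tap2, Tapbp, Psmb8, Psmb9, Nlrc5 and Cd274. The study holds 6 RNA-seq libraries in 3 groups, with 2 libraries each labelled sh4, sh1 and NC. All are labelled as A549, an established human lung adenocarcinoma line, and the series title names a knockdown of DSTY. The labels spell out none of the group names. Reading sh4 and sh1 as knockdown groups and NC as their control is an assumption from the series' design text. No treatment, time or clone is given for any group, and nothing says that the 2 libraries of a group came from separate cultures, so p-values measure the spread between these libraries, which may be technical.

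Cells show fragments of their own proteins on MHC class I, a complex of a polymorphic heavy chain and the invariant light chain beta-2 microglobulin. Proteasomes cut proteins into peptides, and the interferon-inducible subunits encoded by Psmb8 and Psmb9 replace constitutive subunits to form the immunoproteasome. The TAP transporter, made of Tap1 and Tap2, carries peptides into the endoplasmic reticulum, where tapasin (Tapbp) bridges TAP and the empty class I complex. Nlrc5 is a transactivator of class I genes. PD-L1, encoded by Cd274, sits on the cell surface and restrains T cells through the receptor PD-1. In tumour cells these genes bear on whether cytotoxic T cells can recognise and act on the cell.

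The files and the labels disagree on the organism. Each of the 54532 IDs has the prefix that Ensembl gives to mouse genes and 0 have the human prefix, whereas the labels call the cells human. The species of the RNA is thus unresolved here, and sh4, sh1 and NC stand for libraries so labelled. None of the IDs matched the gene name tables used here. The targeted gene, the markers of the labelled cell type and 7 lists of related genes were therefore not analysed here. Values are FPKM (fragments per kilobase of gene, scaled between libraries). That scaling followed size factors of the median-of-ratios kind and not total reads. Whole reads that fit the values were recovered, between 14999784 and 18011797 per library. The chi-square between replicates averaged 4.75 per ID in sh4, 2.60 in sh1 and 4.79 in NC, above the 1 of pure counting error.

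The genes spanned a wide range of levels. B2m was the highest in every library, between 239.1 and 361.4 FPKM, above H2-D1, which lay between 106.0 and 144.6 FPKM. In each group Tapbp came next, then H2-K1, then Tap2, and the libraries of neighbours in this order did not overlap. Psmb8 exceeded Tap1 in sh4 and in sh1, while in NC Tap1 exceeded Psmb8. Psmb9 and Cd274 were low, between 0.820 and 2.28 FPKM and between 0.673 and 1.11 FPKM, and in NC their libraries overlapped. Nlrc5 was the lowest in every library, between 0.172 and 0.662 FPKM. Among the 12755 IDs with at least 1 FPKM in at least 2 libraries, the mean level of B2m exceeded 99.0% of IDs in sh4, 99.0% in sh1 and 98.8% in NC, and that of Cd274 exceeded 5.3%, 8.1% and 7.4%.

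**Figure D1:**
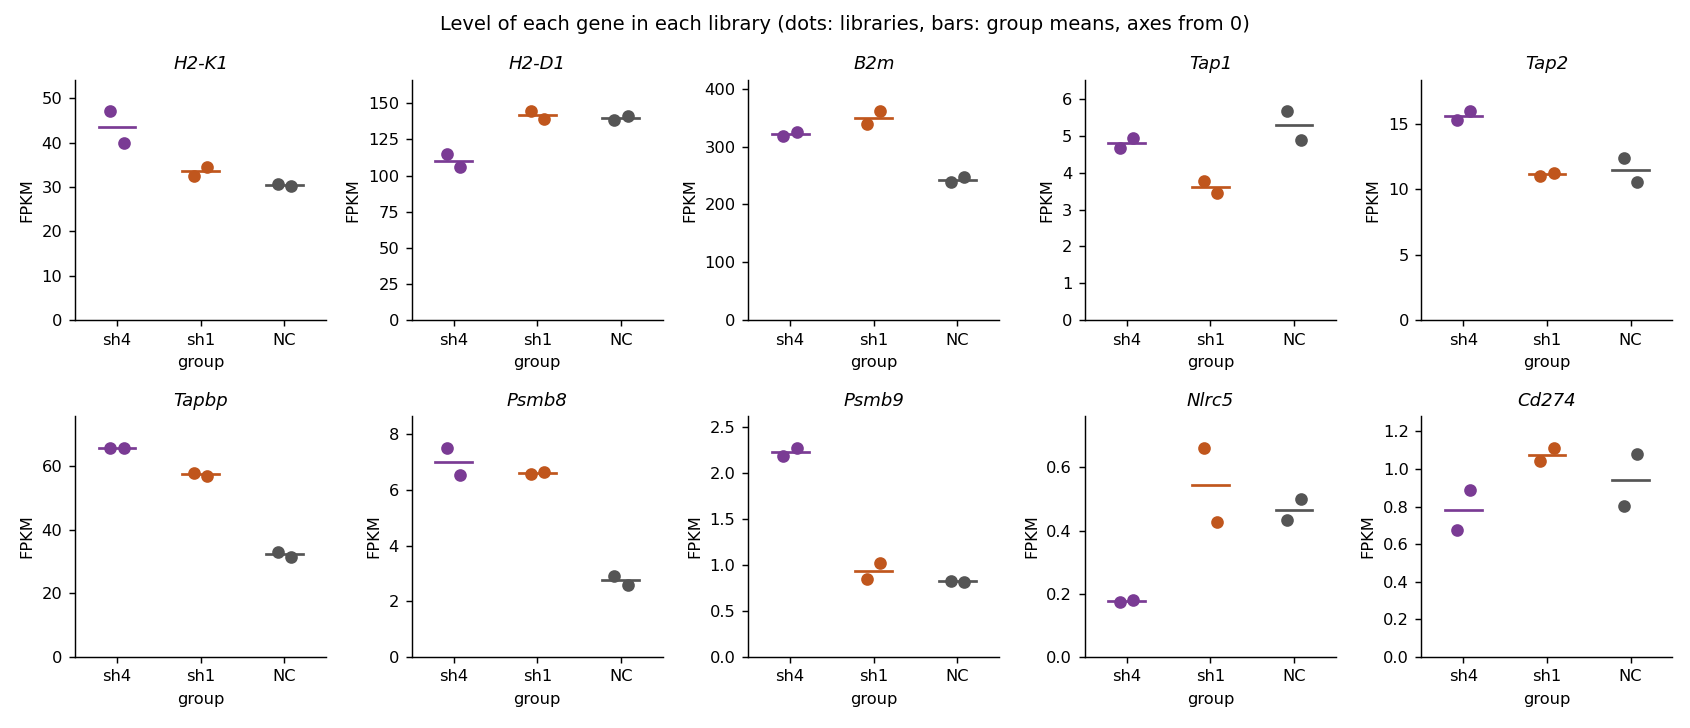
FPKM of each gene (vertical axis of each panel, from 0) in the groups sh4, sh1 and NC (horizontal axis); dots are single libraries and bars are means of 2 libraries. Tapbp and Psmb8 lay above NC in all 4 libraries of sh4 and sh1, Psmb9 was highest in sh4, and H2-D1 and Nlrc5 were lowest in sh4.

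The groups were compared with limma on log2(FPKM + 1), in a single fit of all 6 libraries over 12755 IDs, with Benjamini-Hochberg adjustment over all of them. Limma drew the spread of each ID partly from that of the other IDs, so a p-value does not rest on the gene's own libraries alone. Differences below are on that scale, which understates changes of low genes. Adjusted p-values also depend on the level filter. With no filter, limma gave larger ones for every call among the genes described here. Of those calls, only B2m between sh4 and sh1 was then lost (adjusted p = 0.112), and Tap1 between sh4 and sh1 was nearest the threshold (0.0478). Of the 10 genes, 9 entered the fit. Nlrc5 reached 1 FPKM in no library. Psmb9 entered through both sh4 libraries and 1 sh1 library, so its passing of the filter already followed its high level in sh4. Cd274 entered through both sh1 libraries and 1 NC library, so its passing likewise rested on sh1, where its mean was highest.

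Set against NC, sh4 had 7 of the 9 genes past an adjusted p of 0.05, with 6 higher and 1 lower. The 7 include Psmb9, which passed the level filter through sh4. Over all IDs tested, 68.3% passed, 35.0% higher and 33.3% lower. Set against NC, sh1 had 4 of the 9 past the threshold, with 3 higher and 1 lower, where 65.5% of all IDs passed, 32.3% higher and 33.2% lower. Both comparisons use the same 2 NC libraries. Between sh4 and sh1, 7 of the 9 differed, with 5 higher in sh4 and 2 lower, where 55.9% of all IDs passed, 29.5% higher and 26.4% lower. Psmb9 is again among the 7. Of the calls over all IDs between sh4 and sh1, 52.8% were higher in sh4 on the deposited scale. This share was 62.2% where libraries were scaled by total reads and 67.0% where their FPKM sums were made equal. Differences of at least 1 log2 unit past the threshold were found for 2 of the 9 genes in sh4 against NC (10.2% of IDs tested), 1 in sh1 against NC (9.99%) and 0 between sh4 and sh1 (6.33%). These counts hold for a pseudocount of 1. With a pseudocount of 0.1, Psmb9 also passed 1 log2 unit, at 1.33 in sh4 against NC and 1.18 in sh4 against sh1.

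The size of the differences was set beside that of all IDs. With no level filter, the median difference of the 10 genes was 0.41 in sh4 against NC, 0.09 in sh1 against NC and 0.13 in sh4 against sh1. The median over the 25747 IDs above 0 in any library was 0 in each. The median absolute difference of the 10 genes was 0.41, 0.12 and 0.34 in the same comparisons. Over the 25747 IDs, many of them near 0 FPKM, it was 0.17, 0.17 and 0.13, and over the 12755 IDs past the filter 0.37, 0.36 and 0.27. The libraries of the groups did not overlap for 7 of the 9 genes tested between sh4 and NC, where 82.7% of IDs tested did not. They did not overlap for 6 of the 9 between sh1 and NC (82.3% of IDs) and for 8 of the 9 between sh4 and sh1 (78.0%).

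**Figure D2:**
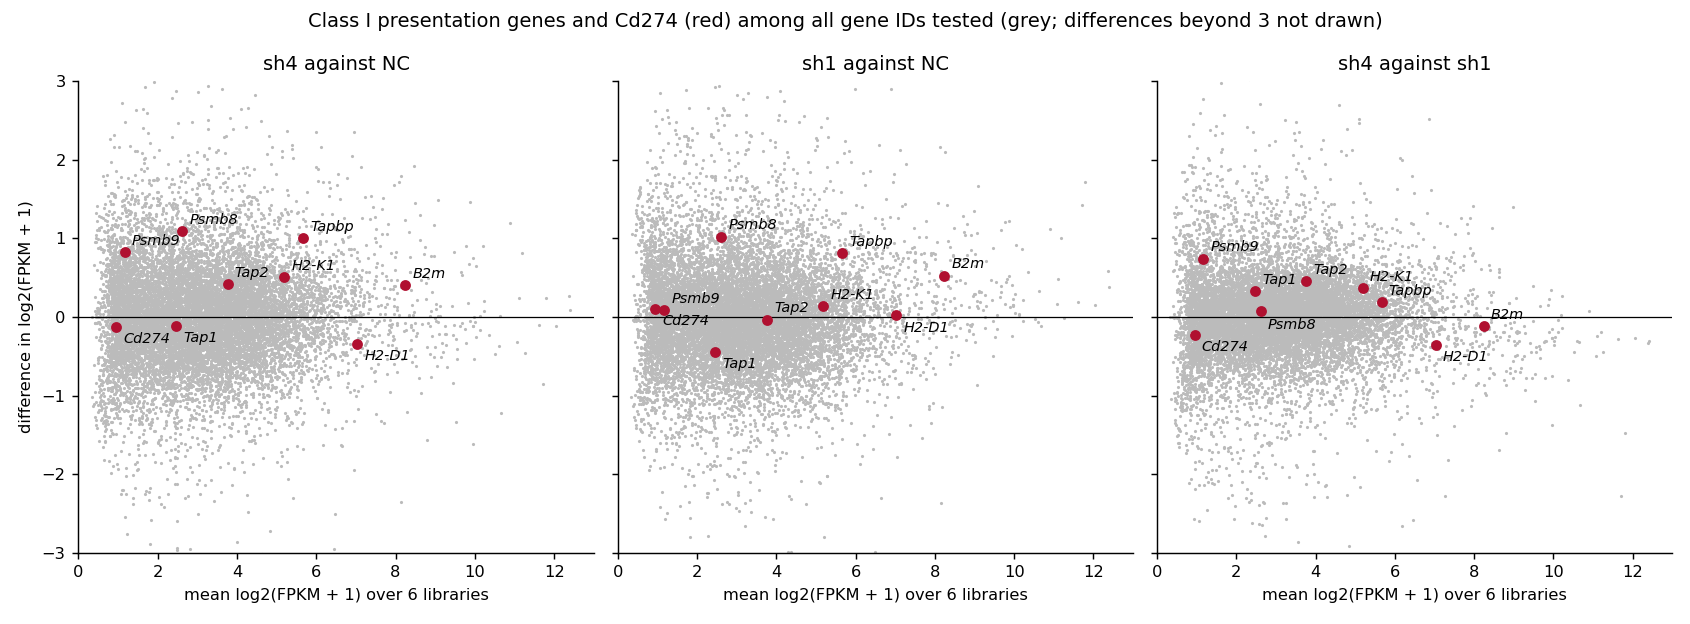
Difference in log2(FPKM + 1) (vertical axis) against the mean of log2(FPKM + 1) over the 6 libraries (horizontal axis) for the IDs tested (grey) and the 9 genes tested (red), in the 3 comparisons. Psmb8 and Tapbp sit in the upper part of the cloud in both comparisons with NC, at 1.09 and 1.01 in sh4 and at 1.02 and 0.81 in sh1, and no gene drawn reaches 1 log2 unit between sh4 and sh1 on this scale.

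The heavy chain genes moved in opposite directions in sh4. H2-K1 (ENSMUSG00000061232), a classical class I heavy chain gene of the mouse, was at 47.1 and 40.0 FPKM in sh4, 32.5 and 34.5 FPKM in sh1, and 30.6 and 30.2 FPKM in NC. Both sh4 libraries lay above all others, and the groups did not overlap. H2-K1 rose in sh4 against NC by 0.50 (SE 0.07, adjusted p = 3.73e-05, n = 2 against 2 in limma's fit), a ratio of mean FPKM of 1.43. With no level filter, limma's adjusted p for H2-K1 was 0.0121. In sh1 its difference from NC was 0.14 (95% interval -0.01 to 0.29, adjusted p = 0.103 in limma's fit). That difference passed the threshold in fits without sh4 replicate 1 (0.14, adjusted p = 0.0331) or without sh4 replicate 2 (0.14, adjusted p = 0.0321), which change only the estimate of the spread.

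H2-D1 (ENSMUSG00000073411), the other classical heavy chain gene named, was at 114.7 and 106.0 FPKM in sh4, 144.6 and 138.9 FPKM in sh1, and 138.3 and 141.2 FPKM in NC. Both sh4 libraries were below all others, while sh1 and NC overlapped. H2-D1 fell in sh4 against NC by 0.34 on the log2(FPKM + 1) scale (SE 0.05, adjusted p = 3.74e-05). In sh1 its difference from NC was 0.02 (95% interval -0.08 to 0.12, adjusted p = 0.736), and its sign turned without sh1 replicate 1 (-0.01), with scaling by total reads (-0.04) and with equal FPKM sums (-0.06). Directly compared, sh4 exceeded sh1 by 0.37 for H2-K1 (SE 0.07, adjusted p = 7.17e-04) and was below sh1 by 0.36 for H2-D1 (difference -0.36, SE 0.05, adjusted p = 3.58e-05).

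Within a library, H2-D1 stood at 2.43 and 2.65 times the FPKM of H2-K1 in sh4, 4.44 and 4.03 times in sh1, and 4.52 and 4.68 times in NC. The sh4 ratios were below every other library. The summed FPKM of both heavy chain genes was 161.9 and 146.0 in sh4, 177.2 and 173.4 in sh1, and 168.9 and 171.4 in NC. The ratios were not tested, and an exact permutation test of 2 against 2 libraries could give no two-sided p below 0.333. Class I heavy chain genes are near-identical copies of each other in parts, and how reads that fit several copies were counted is not given in the sources used here, so the split between H2-K1 and H2-D1 is uncertain.

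B2m (ENSMUSG00000060802), the gene of the light chain, was higher in both groups than in NC. It was at 319.1 and 324.3 FPKM in sh4, 338.7 and 361.4 FPKM in sh1, and 239.1 and 246.7 FPKM in NC. All 4 libraries of sh4 and sh1 lay above both NC libraries, and the groups did not overlap. B2m rose by 0.40 in sh4 (SE 0.05, adjusted p = 5.97e-06) and by 0.52 in sh1 (SE 0.05, adjusted p = 5.35e-07) in limma's fit. Relative to the summed heavy chain genes, B2m was 1.97 and 2.22 times as high in sh4, 1.91 and 2.08 times in sh1, and 1.42 and 1.44 times in NC. As deposited, B2m was lower in sh4 than in sh1 by a small margin (difference -0.12, SE 0.05, adjusted p = 0.0391). That call was lost with total-read scaling (-0.04, adjusted p = 0.468), and the difference was 0.0018 with equal FPKM sums (adjusted p = 0.982). It was also lost without sh1 replicate 2 (-0.07, adjusted p = 0.334), without sh4 replicate 1 (-0.11, adjusted p = 0.112) and without sh4 replicate 2 (-0.13, adjusted p = 0.0582).

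**Figure D3:**
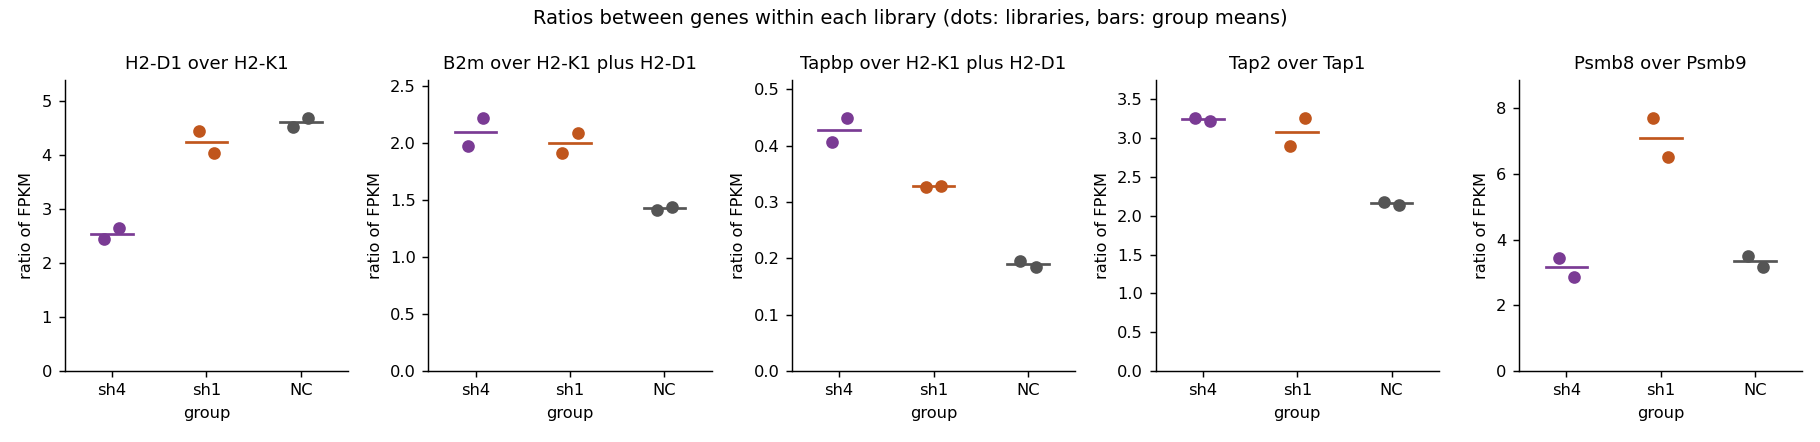
Ratios of FPKM between genes within each library (vertical axis, from 0) in sh4, sh1 and NC (horizontal axis); dots are single libraries and bars are means of 2 libraries. H2-D1 over H2-K1 is 2.43 and 2.65 in sh4 and at least 4.03 elsewhere, and the ratio of Psmb8 to Psmb9 is 6.50 and 7.72 in sh1 and at most 3.51 elsewhere.

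Against NC, Tap1 was called in sh1 and Tap2 in sh4, and both were higher in sh4 than in sh1. Tap1 (ENSMUSG00000037321) was at 4.67 and 4.96 FPKM in sh4, 3.79 and 3.45 FPKM in sh1, and 5.68 and 4.91 FPKM in NC. Both sh1 libraries were below all others, and sh4 overlapped NC. Tap1 fell in sh1 against NC by 0.44 on the log2(FPKM + 1) scale (SE 0.08, adjusted p = 4.83e-04, or 0.0157 in limma's fit with no level filter). In sh4 its difference was -0.11 (95% interval -0.30 to 0.07, adjusted p = 0.253). Tap1 was higher in sh4 than in sh1 by 0.33 (SE 0.08, adjusted p = 0.00488), a call lost without sh1 replicate 2 (0.28, adjusted p = 0.056).

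Tap2 (ENSMUSG00000024339) was at 15.2 and 16.0 FPKM in sh4, 11.0 and 11.3 FPKM in sh1, and 12.4 and 10.5 FPKM in NC. Both sh4 libraries lay above all others, and the sh1 libraries fell between those of NC. Tap2 rose in sh4 against NC by 0.42 (SE 0.07, adjusted p = 3.06e-04). In sh1 its difference was -0.03 (95% interval -0.20 to 0.13, adjusted p = 0.707), and without NC replicate 1 it was 0.07. Between sh4 and sh1 Tap2 differed by 0.45 (SE 0.07, adjusted p = 2.39e-04). The FPKM of Tap2 was 3.26 and 3.22 times that of Tap1 in sh4, 2.90 and 3.26 times in sh1, and 2.18 and 2.14 times in NC. Ratios in sh4 and sh1 lay above those in NC, with Tap2 called higher in sh4 and Tap1 called lower in sh1.

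Tapbp, whose product tapasin holds class I molecules at TAP while peptides are loaded, was higher in both groups than in NC. Tapbp (ENSMUSG00000024308) was at 65.9 and 65.7 FPKM in sh4, 57.9 and 57.1 FPKM in sh1, and 33.0 and 31.5 FPKM in NC. The 3 groups did not overlap, and replicates lay close together. Tapbp rose by 1.01 in sh4 (SE 0.05, adjusted p = 1.64e-09) and by 0.81 in sh1 (SE 0.05, adjusted p = 9.24e-09), ratios of mean FPKM of 2.04 and 1.78. With no level filter, limma's adjusted p was 2.01e-04 in sh4 and 2.25e-04 in sh1. Of all IDs tested, 10.4% had a larger absolute difference in sh4 and 16.6% in sh1. The difference between sh4 and sh1 was 0.19 (SE 0.05, adjusted p = 0.00316). Per summed heavy chain FPKM, Tapbp stood at 0.407 and 0.450 in sh4, 0.327 and 0.329 in sh1, and 0.195 and 0.184 in NC.

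**Figure D4:**
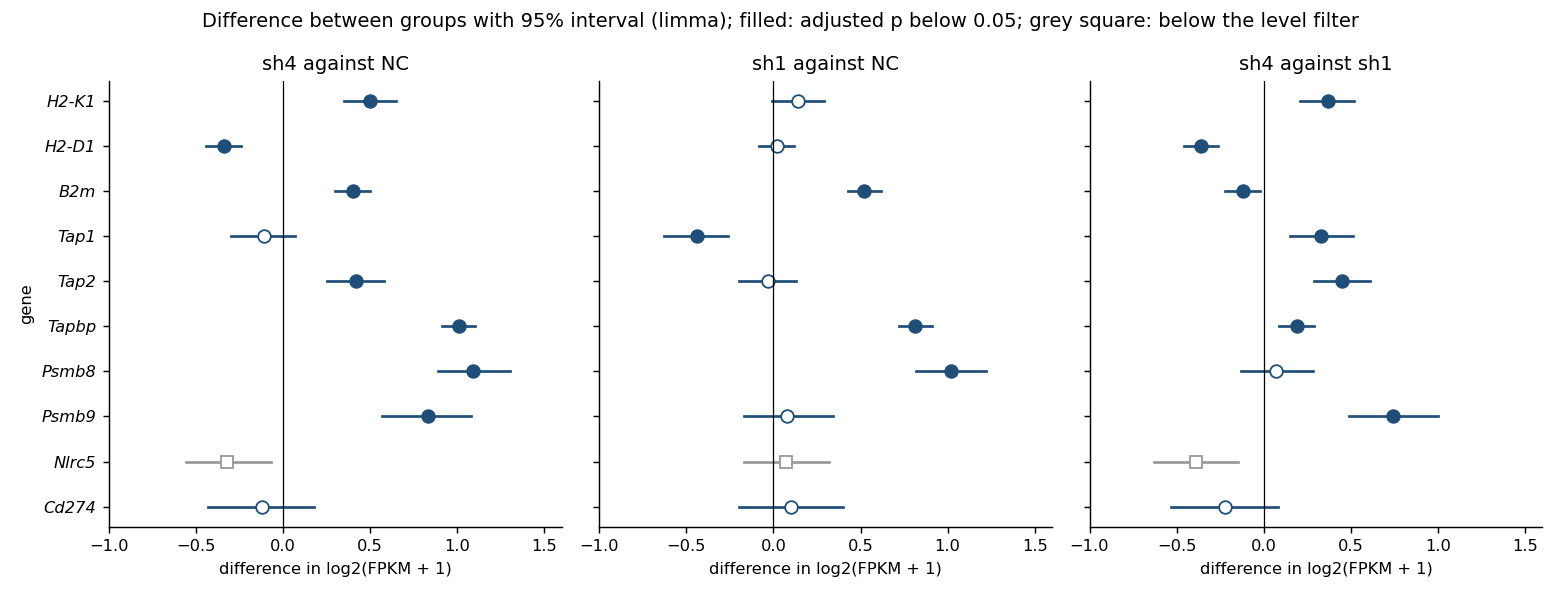
Difference between groups in log2(FPKM + 1) (horizontal axis) with its 95% interval for each gene (vertical axis) in the 3 comparisons, from limma; filled circles passed an adjusted p of 0.05, and the grey square is Nlrc5 from the fit with no level filter. Intervals of B2m, Tapbp and Psmb8 lie above 0 in both comparisons with NC, while H2-K1, Tap2 and Psmb9 are called in sh4 and not in sh1.

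Of the immunoproteasome genes, Psmb8 rose in both groups against NC, and Psmb9 rose in sh4. Psmb8 (ENSMUSG00000024338), which encodes the subunit also called LMP7, was at 7.52 and 6.53 FPKM in sh4, 6.56 and 6.66 FPKM in sh1, and 2.92 and 2.60 FPKM in NC. All 4 libraries of sh4 and sh1 lay above both NC libraries, and sh4 and sh1 overlapped. Psmb8 rose by 1.09 in sh4 (SE 0.09, adjusted p = 4.63e-07) and by 1.02 in sh1 (SE 0.09, adjusted p = 8.54e-07). The ratios of mean FPKM were 2.55 and 2.40. Between sh4 and sh1 its difference was 0.07 (95% interval -0.13 to 0.28, adjusted p = 0.527), and without sh4 replicate 1 it was -0.015.

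Psmb9 (ENSMUSG00000096727), which encodes the subunit also called LMP2, was at 2.19 and 2.28 FPKM in sh4 (148 and 153 reads), 0.851 and 1.02 FPKM in sh1 (52 and 66 reads), and 0.831 and 0.820 FPKM in NC (48 and 46 reads). The sh4 libraries stood apart, and the sh1 libraries lay just above those of NC. Psmb9 rose in sh4 against NC by 0.83 (SE 0.12, adjusted p = 4.51e-05), a ratio of mean FPKM of 2.71. Limma's fit with no level filter gave the same difference an adjusted p of 0.00137. By voom on reads with no level filter, a fit chosen after seeing the data, that difference was 1.43 (95% interval 0.93 to 1.92). In sh1 it was 0.08 (95% interval -0.17 to 0.34, adjusted p = 0.549), or 0.18 by voom (-0.40 to 0.76). Psmb9 was higher in sh4 than in sh1 by 0.74 (SE 0.12, adjusted p = 1.68e-04, or 0.00283 in limma's fit with no level filter), or by 1.25 by voom.

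The subunit genes were also set against each other within a library. The FPKM of Psmb8 was 3.43 and 2.87 times that of Psmb9 in sh4, 7.72 and 6.50 times in sh1, and 3.51 and 3.17 times in NC. The sh1 ratios were above all others, and sh4 overlapped NC. Psmb8, Psmb9, Tap1 and Tap2 are neighbours within the MHC of the mouse, and Psmb9 lies head to head with Tap1. In sh1, Psmb8 was called higher and Tap1 lower, and in sh4 Psmb8, Psmb9 and Tap2 were called higher. In these bulk samples, a change in the number of cells that express a gene and in the RNA per cell cannot be told apart.

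Nlrc5 (ENSMUSG00000074151), the transactivator of class I genes, was the least abundant. It was at 0.172 and 0.180 FPKM in sh4 (27 and 28 reads), 0.662 and 0.428 FPKM in sh1 (94 and 64 reads), and 0.433 and 0.499 FPKM in NC (58 and 65 reads). Both sh4 libraries were below all others, and sh1 and NC overlapped. The summed reads were 55 in sh4 (exact 95% Poisson interval 41.4 to 71.6), 158 in sh1 (134 to 185) and 123 in NC (102 to 147), intervals that cover counting error only. The ratio of mean FPKM was 0.38 for sh4 against NC and 0.32 for sh4 against sh1. In limma's fit with no level filter, the difference between sh4 and NC was -0.32 (adjusted p = 0.061), where 33.2% of 25747 IDs passed. By voom on the recovered reads it was -1.39 (95% interval -2.10 to -0.67, adjusted p = 0.00236), where 39.8% passed. That voom fit, with no level filter, was chosen after seeing the data. Its median difference over the 25747 IDs was -0.165 in sh4 against NC, -0.102 in sh4 against sh1 and -0.094 in sh1 against NC. Against sh1 the sh4 difference of Nlrc5 was -0.39 (adjusted p = 0.0431, 24.6% of IDs passing) by limma and -1.57 (adjusted p = 6.84e-04, 31.3% passing) by voom. Between sh1 and NC it was 0.07 by limma (adjusted p = 0.635) and 0.19 by voom (adjusted p = 0.616), where 31.9% and 36.4% passed.

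Cd274 (ENSMUSG00000016496), the gene of PD-L1, was low in every library and passed the threshold in no comparison. It was at 0.673 and 0.888 FPKM in sh4 (45 and 59 reads), 1.04 and 1.11 FPKM in sh1 (63 and 71 reads), and 0.804 and 1.08 FPKM in NC (46 and 60 reads). The sh4 libraries overlapped those of NC, as did the sh1 libraries, and sh4 lay below sh1. In limma's fit, the difference from NC was -0.12 in sh4 (95% interval -0.43 to 0.18, adjusted p = 0.442) and 0.10 in sh1 (-0.20 to 0.40, adjusted p = 0.545). Without NC replicate 1 the sh1 difference was -0.0025. Between sh4 and sh1 it was -0.22 (-0.53 to 0.08, adjusted p = 0.186). By voom on reads with no level filter, chosen after seeing the data, the intervals ran from -0.87 to 0.33 in sh4 and from -0.36 to 0.78 in sh1. The counts above limit how small a change could be seen.

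Likeness between genes was described by the Pearson correlation of log2(FPKM + 1) over the 6 libraries, which fall into 3 groups and so offer few independent points. Tapbp and Psmb8 were each most like the other (0.987). H2-D1 and Nlrc5, both lowest in sh4, were likewise paired (0.938). Tap2 and Psmb9, both highest in sh4, were paired at 0.943, and H2-K1 was most like Psmb9 (0.931). B2m was most like Psmb8 (0.939). The highest correlation of Tap1 was with Tap2, at 0.383, and that of Cd274 with Nlrc5, at 0.693. Only the highest signed correlation was taken, so genes that ran opposite to each other were not described. Among 7685 other IDs with a mean of at least 5 FPKM, 225 correlated with H2-K1 at 0.95 or more, led by ENSMUSG00000026229 and ENSMUSG00000037089 (0.998 each). With Cd274 there were 4, led by ENSMUSG00000042390 (0.988) and ENSMUSG00000021244 (0.986). Cd274 had 45 to 71 reads per library and was called in no comparison. All these were picked as the highest of 7685 values, and how many would reach 0.95 by chance was not tested.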

How the data were processed

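RNA was extracted with Trizol and libraries were made by Illumina protocols, per the labels' protocols. The deposited files give FPKM per gene ID for single libraries, computed by the authors. HISAT2 2.0.5 and the build hg18 are named per the submitters' processing notes. Counter, annotation and filters: not given in the sources used here. Whole reads and gene lengths that fit the values were found for 25747 of 25747 IDs above 0, each value being rebuilt to within 1e-06 FPKM plus 1e-07 of the value. The shortest length that fit was taken. Where the true reads and length of an ID share a factor, both can thus be too small, which rebuilding cannot show. Denominators followed size factors of the median-of-ratios kind (largest departure 5.74e-08%), a scaling between libraries that the values already carry. Groups were taken from the sample titles. Values of log2(FPKM + 1) were tested with limma 3.58.1 (R 4.3.3) for IDs reaching 1 FPKM in at least 2 libraries, with 6 libraries in a single fit with 3 residual degrees of freedom, robust empirical Bayes with the variance trend on mean recovered reads, and a threshold of 0.05. The fit was tested on simulated data in which few IDs changed, equally in sh1 and sh4. That setting is unlike these data, so the simulation does not show how the fit performs on them. The design, gene lists and members were chosen with earlier results of these data known. All 10 members are named, and likeness followed a set rule. Alternatives changed the pseudocount, filter, scaling, variance trend, block, minimum fold and libraries, or used voom on recovered reads with the deposited scaling. The fit by voom with no filter was chosen after seeing the data.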

Additional observations from a re-analysis of the deposited data

Results flagged for a closer look

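In limma's direct test of sh4 minus sh1, effects relative to NC were unequal for 7 of the 9 genes tested, where 55.9% of all IDs did. The difference was 0.74 for Psmb9, 0.45 for Tap2, 0.37 for H2-K1, 0.33 for Tap1 and 0.19 for Tapbp, all higher in sh4. It was -0.36 for H2-D1 and -0.12 for B2m, both lower in sh4. Psmb9 passed the level filter through sh4, so its call is not independent of its level there. The call for B2m was lost when scaled by total reads (-0.0403), with no filter (adjusted p = 0.112), with the variance trend on mean FPKM (adjusted p = 0.0706) and without sh1 replicate 2, sh4 replicate 1 or sh4 replicate 2 (-0.0743 to -0.1325), and that for Tap1 without sh1 replicate 2 (0.2775). No batch is given in the labels, so a difference in handling that runs with the groups cannot be told apart from the groups.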

How the results depend on the processing

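A minimum of 1 log2 unit was the only alternative run that moved a number of called genes by over 1.5 times. It left 2 of 7 for sh4 against NC (Psmb8, Tapbp), 1 of 4 for sh1 against NC (Psmb8) and 0 of 7 between sh4 and sh1. Of all IDs tested, 10.2%, 9.99% and 6.33% passed with that minimum in the same order, and 68.3%, 65.5% and 55.9% without it. With a pseudocount of 0.1 or by voom, Psmb9 also exceeded that minimum, at 1.3347 and 1.4258 in sh4 against NC and at 1.175 and 1.2479 between sh4 and sh1. With single libraries left out in turn, each gene called in the main fit kept the sign of its difference. The smallest of these was B2m between sh4 and sh1, at -0.17 to -0.07. The lone library of a group was then assumed to vary like the others. The replicate block gave 7 genes for sh4 against NC, 4 for sh1 against NC and 7 between sh4 and sh1, and changed no call of a gene. Over all 12755 IDs it called 4536 higher and 4315 lower in sh4 against NC. The counts were 4193 and 4313 in sh1 against NC, and 3861 and 3468 between sh4 and sh1. Libraries with the same number deviated together with a correlation of 0.122 for sh4 and NC, -0.014 for sh1 and NC, and -0.021 for sh4 and sh1, so the numbers are not taken as pairs. Of 399 single-gene values under the other alternatives, 382 kept direction and side of the threshold, 7 lost and 3 gained a call, and 7 changed sign. The sign changes were H2-D1 in sh1 (-0.0416 with total-read scaling, -0.0579 at the same FPKM sum, -0.0095 to 0.0487 without 1 library), Tap2 in sh1 (-0.1432 to 0.0744) and Cd274 in sh1 (-0.0025 to 0.2027) without 1 library, B2m between sh4 and sh1 (0.0018 at the same FPKM sum) and Psmb8 between sh4 and sh1 (-0.015 to 0.1627 without 1 library). None of these passed an adjusted p of 0.05, and the cause was not tested. B2m at the same FPKM sum thereby lost its call too, but is counted as a sign change and not among the 7 lost. Psmb9, Nlrc5 and Cd274 rest on 27 to 153 reads per library.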
